A study of Homo sapiens with 12 samples.

Results

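The genes described here are 7 early response genes of ERK signalling, EGR1, IER2, IER3, PHLDA1, EMP1, MAFF and MYC, chosen by gene symbol from the 23497 genes of the count table. They were measured in WM1366, an NRAS-mutant human melanoma cell line, by sequencing of polyadenylated RNA. The 3 drug-resistant daughter lines are named for the pair of drugs they grew in. EB-resistant cells had encorafenib with binimetinib in the medium, VC-resistant cells had vemurafenib with cobimetinib, and DT-resistant cells had dabrafenib with trametinib. In each pair the first drug inhibits BRAF and the second inhibits MEK, and the sensitive parent line was kept in DMSO, the solvent. Cells were lysed 72 h after seeding, and each group has 3 libraries from independent experiments, with the replicate numbers 2, 5 and 6. All 4 groups carry the NRAS mutation of the parent. Each drug pair is represented by 1 line, and resistance, the drug in the medium and the history of the culture cannot be told apart.

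ERK, the last kinase of the RAS, RAF and MEK cascade, enters the nucleus and phosphorylates ETS-family factors such as ELK1, which sit beside serum response factor (SRF) on promoters of immediate early genes. These genes respond to growth factors without new protein synthesis, and many of their messages are short-lived, so that their level follows current signalling. In melanoma with mutant NRAS or BRAF the cascade runs without outside stimulus, and MEK inhibitors lower its output. No stimulus was applied here, so the values are levels in growing cultures and not induction after a pulse, and membership of an early response rests on this background.

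PHLDA1, EMP1 and IER2 were lower in each of the 3 resistant lines than in sensitive cells, EMP1 by 6.11-fold in EB-resistant cells, and the 3 comparisons share the sensitive libraries. For the other 4 genes the lines that passed the test differed. MYC and MAFF fell in EB-resistant cells, MAFF rose in DT-resistant cells, and IER3 fell in VC-resistant cells. EGR1 fell in DT-resistant cells, to 4 to 27 counts per library. Its EB-resistant and VC-resistant libraries also lay below the sensitive ones, but these differences did not pass the test.

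The promoters of these genes differ in some binding motifs and share others. A link between these motifs and the changes in the lines was not tested. RefSeq promoter windows of GRCh38.p14, 250 bases before to 50 bases after a start site, were matched for EGR1, IER2, PHLDA1, EMP1 and MAFF, 5 of the 7, with 2 start sites for MAFF. IER3 and MYC were not matched. Exact matches were searched on both strands and set against 35116 windows of the same length. A match describes letters and shows no binding. The stretch before the EGR1 start site, chr5:138465229-138465478 on the plus strand, is given with its EGR site (GCGNGGGCG) and 2 CArG boxes, the motif of SRF, in capitals.
EGR1: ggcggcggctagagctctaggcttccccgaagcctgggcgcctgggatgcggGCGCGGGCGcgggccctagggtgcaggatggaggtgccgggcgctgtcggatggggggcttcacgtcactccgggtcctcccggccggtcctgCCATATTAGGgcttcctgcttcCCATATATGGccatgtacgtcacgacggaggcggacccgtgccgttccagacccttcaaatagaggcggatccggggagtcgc

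The CArG boxes of EGR1 began 105 and 83 bases before the start site. At least 1 CArG box was present in 1.293% of all windows and at least 2 in 0.031%. Both boxes lay within 20 bases of an ETS core (GGAA on either strand), and at least 2 such boxes were present in 0.006% of windows. The EGR site of EGR1, a match to the motif of its own protein, was shared by 9.434% of windows.

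EMP1 had no CArG box and 2 AP-1 sites (TGANTCA, the motif of FOS and JUN dimers), which are in capitals in the stretch chr12:13196476-13196715 on the plus strand.
EMP1: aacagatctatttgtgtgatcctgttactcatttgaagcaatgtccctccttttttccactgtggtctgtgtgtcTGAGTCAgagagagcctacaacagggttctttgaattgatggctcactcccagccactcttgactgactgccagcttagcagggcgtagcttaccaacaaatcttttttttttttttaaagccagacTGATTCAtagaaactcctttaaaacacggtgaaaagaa

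The 2 sites of EMP1 began 175 and 48 bases before its start site, and 0.515% of windows had at least 2 of them. The remaining 3 genes are shown by the stretch around 1 match each. Capitals mark a cyclic AMP response element (TGACGTCA) in MAFF, at chr22:38201930-38201957 on the plus strand, and the ETS core with its flank (CCGGAA, read here as its reverse complement) in PHLDA1, at chr12:76031850-76031875 on the minus strand, and in IER2, at chr19:13150375-13150400 on the plus strand.
MAFF: gccgggtcggTGACGTCAccgcatgact
PHLDA1: ggagaggagtTTCCGGggctcgggtc
IER2: cagaggcagcTTCCGGtgcacatgcc

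The element of MAFF was present in 1.848% of windows. On each strand it contains its shorter form, TGACG, so its 2 overlapping matches to TGACG follow from the element itself. TGACG was also matched 2 times in EGR1, 135 and 66 bases before the start site, and 1 time in IER2, 140 bases before. At least 1 match to TGACG was present in 24.553% of windows and at least 2 in 6.023%. MAFF also had an E-box (CACGTG, the motif of MYC and MAX) before each start site, and 7.256% of windows had at least 1. The ETS core with its flank was present in 17.249% of windows, and it was found in IER2, PHLDA1 and the first MAFF window. No CArG box was found in the windows of these 3 genes or of EMP1.

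**Figure D1:**
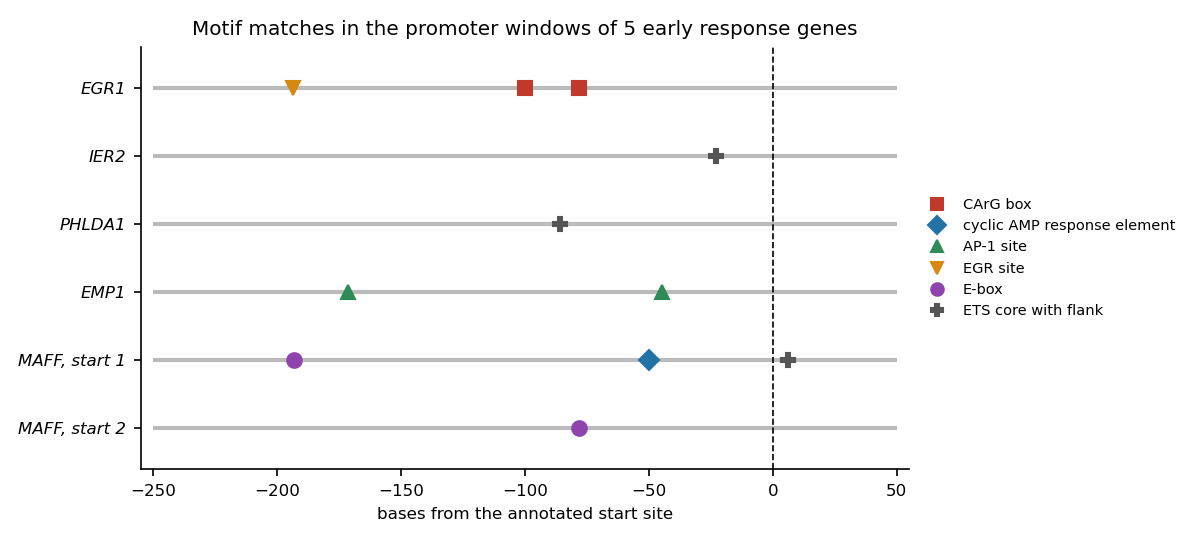
Positions of motif matches, drawn at their centres, in the promoter windows of 5 genes, in bases from the annotated start site (dashed line). Matches to the shorter form TGACG are not drawn. The paired CArG boxes stand in the EGR1 row, the paired AP-1 sites in the EMP1 row and the cyclic AMP response element in the row of the first MAFF start.

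Library totals ran from 40491309 to 54495132 counts, 17114 genes passed the filter on low counts, and all 7 early response genes were among them. Levels are given as CPM, the share of a library's scaled total that one gene holds, with the mean ± SD of a group's 3 libraries unless single libraries are given, and as CPM per kilobase of the annotated length where genes are compared with each other. A gene rose or fell where its adjusted p in the edgeR quasi-likelihood test was under 0.05, with Benjamini-Hochberg adjustment over all genes tested, and a fold change is given as log2 ± SE. These tests measure the spread between experiments on 1 line each, not between lines raised separately. Libraries did not overlap the sensitive ones, in either direction, in 64.7%, 61.7% and 63.7% of tested genes for EB-resistant, VC-resistant and DT-resistant cells. Between resistant lines the share was 66% for EB-resistant and VC-resistant, 64.2% for EB-resistant and DT-resistant and 30.5% for VC-resistant and DT-resistant cells. In bulk RNA, fewer expressing cells and less RNA per cell cannot be told apart. MITF, the melanocyte lineage factor, averaged 53.3, 66.4, 66.3 and 47.1 CPM in EB-resistant, VC-resistant, DT-resistant and sensitive cells, while PMEL, TYRP1 and DCT were each under 1 CPM. SOX10, MLANA, TYR and S100B were not analysed here. The summed level of 8 fibroblast markers was higher in resistant cells, at 525 to 588 CPM in EB-resistant, 281 to 314 CPM in VC-resistant, 361 to 468 CPM in DT-resistant and 109 to 148 CPM in sensitive libraries, with 5, 3, 5 and 1 of them at 1 CPM or more in the same order. In EB-resistant, VC-resistant, DT-resistant and sensitive cells THY1 averaged 410, 277, 248 and 127 CPM, LUM 49.8, 14.7, 145 and 0.916 CPM, PDGFRB 74.5, 2.6, 2.49 and 0.784 CPM, and COL1A1 17.9, 0.603, 3.57 and 0.325 CPM. COL3A1 was at 1 CPM or more in EB-resistant and DT-resistant cells, and the other 3, COL1A2, DCN and PDGFRA, averaged at most 0.146 CPM in any group, with COL1A2 at 0 in DT-resistant and DCN at 0 in sensitive cells. The part of these markers in the results below was not tested. Leukocyte markers summed to at most 1.19 CPM.

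Per kilobase, IER3, PHLDA1 and EMP1 were the most abundant of the 7 in sensitive cells, at 84.4 ± 11.4, 74.6 ± 7.26 and 64.9 ± 7.32 CPM per kilobase. MYC and IER2 followed at 20.8 ± 2.65 and 19.9 ± 2.04, MAFF stood at 10.4 ± 2.45 and EGR1 at 2.47 ± 0.730 CPM per kilobase. In EB-resistant cells PHLDA1 and EMP1 were at 18.7 ± 1.87 and 10.6 ± 0.819 CPM per kilobase, nearer to IER2 at 12.8 ± 0.752 than to IER3 at 68.8 ± 6.65. In DT-resistant cells MAFF, at 22.2 ± 1.90, lay beside EMP1, at 23.4 ± 2.66 CPM per kilobase.

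**Figure D2:**
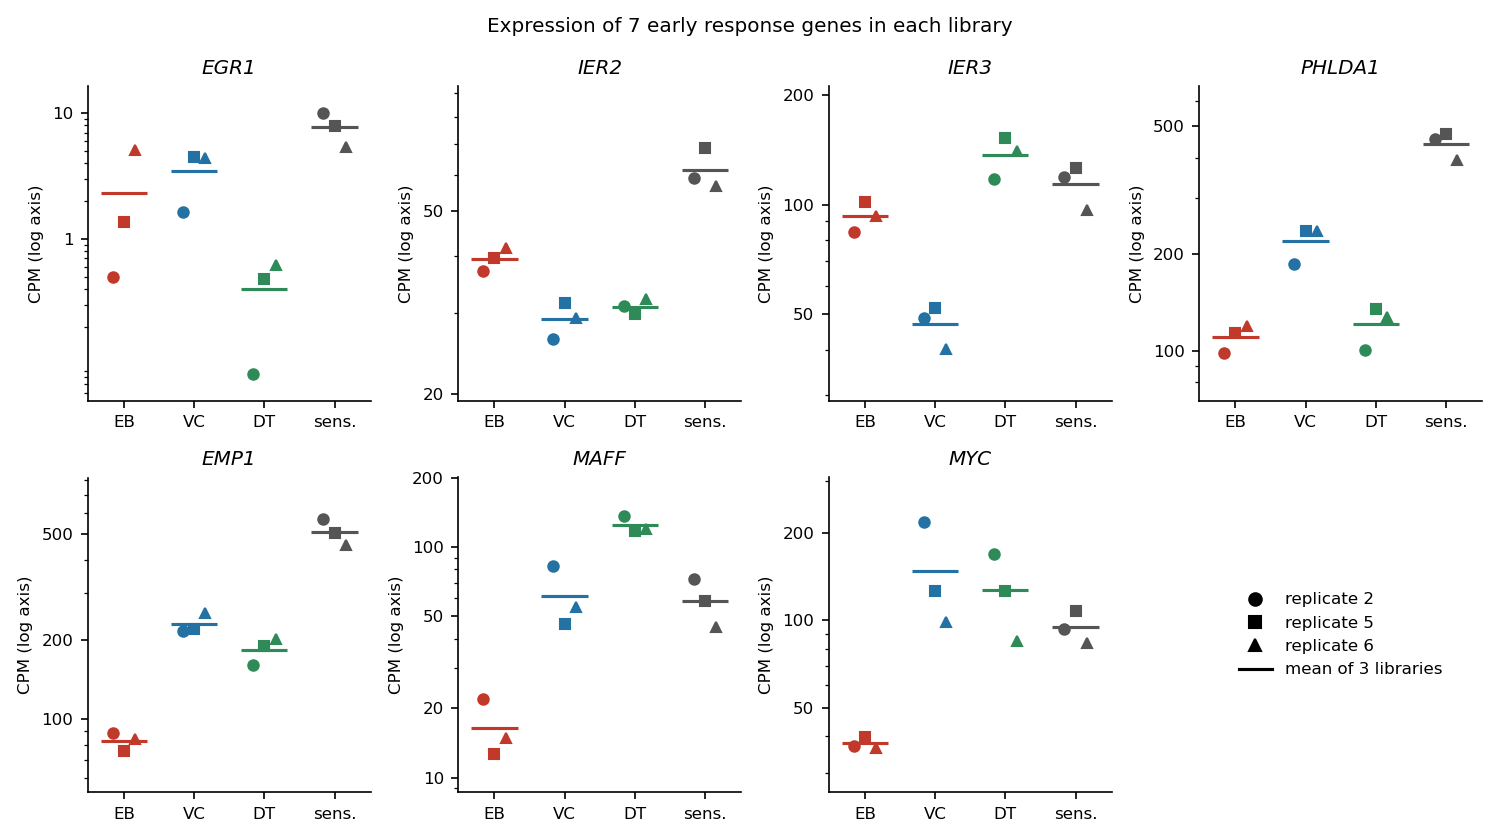
CPM of each gene in every library, on a log axis, by group (EB, VC and DT for the resistant lines, sens. for the sensitive line), with the marker giving the replicate number and the line the mean of 3 libraries. PHLDA1, EMP1 and IER2 are highest in the sensitive libraries, while MAFF is highest in the DT-resistant libraries and EGR1 spreads most within its groups.

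EGR1 (chr5:138465479-138469303, plus strand) encodes a zinc finger transcription factor that is among the most rapidly induced targets of ERK. Its counts were 24, 67 and 243 in EB-resistant, 62, 203 and 235 in VC-resistant, 4, 22 and 27 in DT-resistant and 458, 398 and 248 in sensitive libraries, in the order of replicates 2, 5 and 6. As CPM these were 0.500, 1.36 and 5.11 in EB-resistant, 1.63, 4.47 and 4.38 in VC-resistant, 0.0851, 0.485 and 0.622 in DT-resistant and 9.97, 7.90 and 5.40 in sensitive libraries. All resistant libraries lay below all sensitive ones, but EB-resistant replicate 6 nearly reached sensitive replicate 6. Of all tested genes, 31.9%, 30.9% and 31.7% lay wholly below sensitive cells in EB-resistant, VC-resistant and DT-resistant cells. EGR1 fell in DT-resistant cells, with a log2 fold change of -4.29 ± 0.906 and an adjusted p of 0.00267, which is 19.6-fold lower than in sensitive cells. In EB-resistant cells the log2 difference was -1.74 ± 0.735, with an adjusted p of 0.0709 and a 95% interval of -3.40 to -0.079, and in VC-resistant cells it was -1.14 ± 0.714 with an adjusted p of 0.208. Neither passed the threshold. Without EB-resistant replicate 6 the EB-resistant difference was -3.03 with an adjusted p of 0.00258, and over all alternatives tried its adjusted p ran from 0.00258 to 0.229.

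MYC (chr8:127735434-127742951, plus strand) encodes a basic helix-loop-helix factor that pairs with MAX and promotes growth, and ERK prolongs the life of its protein. Its CPM were 37.3, 40.0 and 36.6 in EB-resistant, 217, 126 and 98.7 in VC-resistant, 169, 127 and 85.0 in DT-resistant and 93.4, 108 and 83.9 in sensitive libraries. The EB-resistant libraries were low and close together, and the other 3 groups overlapped. MYC fell in EB-resistant cells, by 2.51-fold (log2 fold change -1.33 ± 0.314, adjusted p 0.0053). In VC-resistant cells it averaged 147 ± 62.2 CPM, against 95.1 ± 12.1 CPM in sensitive cells, and its log2 difference of 0.63 ± 0.307 did not pass (adjusted p 0.112, 95% interval -0.062 to 1.32). Without VC-resistant replicate 6 that difference was 0.86 with an adjusted p of 0.037, in a range of 0.037 to 0.434 over the alternatives. In DT-resistant cells the log2 difference was 0.42 ± 0.306 (adjusted p 0.271). The fall in EB-resistant cells stood apart from both other lines, with log2 fold changes of -1.96 ± 0.318 in EB-resistant against VC-resistant cells (adjusted p 0.000543) and -1.74 ± 0.317 in EB-resistant against DT-resistant cells (adjusted p 0.00115).

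MAFF (chr22:38200767-38216507, plus strand) encodes a small MAF protein, a leucine zipper factor without an activation domain of its own that pairs with NRF and BACH factors. Its CPM were 21.9, 12.6 and 14.9 in EB-resistant, 82.8, 46.2 and 54.8 in VC-resistant, 137, 117 and 120 in DT-resistant and 72.5, 58.2 and 45.0 in sensitive libraries. The EB-resistant libraries were the lowest and the DT-resistant libraries the highest, and neither overlapped the sensitive libraries, which the VC-resistant libraries did. MAFF fell by 3.55-fold in EB-resistant cells (log2 fold change -1.83 ± 0.271, adjusted p 0.000227) and rose by 2.13-fold in DT-resistant cells (1.09 ± 0.260, adjusted p 0.00469). In VC-resistant cells its log2 difference was 0.06 ± 0.259, with a 95% interval of -0.515 to 0.643 and an adjusted p of 0.851. Between the lines with opposite calls the log2 fold change, EB-resistant against DT-resistant, was -2.92 ± 0.280 (adjusted p 1.1e-05), or 7.56-fold lower. PLA2G6, on the opposite strand, overlaps MAFF and had 66 to 327 counts per library, against 621 to 6430 for MAFF. The strand setting of the counting is not given in the sources used here, so reads of overlapping genes cannot be told apart.

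IER2 (chr19:13150411-13154911, plus strand) encodes a small nuclear protein that acts in transcription. Its CPM were 37.0, 39.5 and 41.6 in EB-resistant, 26.4, 31.6 and 29.3 in VC-resistant, 31.0, 29.9 and 32.1 in DT-resistant and 59.0, 68.5 and 56.7 in sensitive libraries. Every resistant library was below every sensitive one. In single lines, 31.9% (EB-resistant), 30.9% (VC-resistant) and 31.7% (DT-resistant) of tested genes did the same. IER2 fell in EB-resistant cells (log2 fold change -0.64 ± 0.0912, adjusted p 2.34e-05), in VC-resistant cells (-1.08 ± 0.0922, adjusted p 2.27e-07) and in DT-resistant cells (-0.98 ± 0.092, adjusted p 3.91e-07). The EB-resistant line kept the most IER2 of the resistant lines, 1.35-fold more than VC-resistant cells (adjusted p 0.000816) and 1.27-fold more than DT-resistant cells (adjusted p 0.0048). VC-resistant and DT-resistant cells differed by -0.09 on the log2 scale, with a 95% interval of -0.288 to 0.105.

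IER3 (chr6:30743199-30744548, minus strand) encodes a short-lived protein that ERK phosphorylates and that acts in cell survival and death. Its CPM were 84.0, 102 and 92.9 in EB-resistant, 49.0, 52.2 and 40.2 in VC-resistant, 118, 152 and 140 in DT-resistant and 119, 126 and 96.5 in sensitive libraries. The VC-resistant libraries stood below all others, and the sensitive libraries overlapped both the EB-resistant and the DT-resistant ones. IER3 fell by 2.42-fold in VC-resistant cells (log2 fold change -1.27 ± 0.127, adjusted p 1.72e-06). In EB-resistant cells the log2 difference was -0.29 ± 0.124 (adjusted p 0.0579) and in DT-resistant cells 0.26 ± 0.124 (adjusted p 0.0807), and both lay near the threshold. The EB-resistant difference passed in 7 of 20 alternatives, among them the fits without sensitive replicate 6 (-0.39), EB-resistant replicate 5 (-0.36), VC-resistant replicate 6 or DT-resistant replicate 2 (-0.29 each), with adjusted p from 0.0126 to 0.224 over all 20. The DT-resistant difference passed in 4 of 20, among them the fits without sensitive replicate 5 (0.35), VC-resistant replicate 6 (0.27) or DT-resistant replicate 2 (0.37), with adjusted p from 0.0213 to 0.282. Against each other, EB-resistant cells were lower than DT-resistant cells by a log2 fold change of -0.56 ± 0.124 (adjusted p 0.00155), and VC-resistant cells were lower than DT-resistant cells by -1.54 ± 0.127 (adjusted p 2.42e-06). IER3-AS1 and HCG20, antisense to IER3, had at most 17 counts in any library, against 1866 to 6917 for IER3.

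PHLDA1 (chr12:76025447-76031776, minus strand) encodes a protein with a pleckstrin homology-like domain that acts in cell growth and death. Its CPM were 98.5, 114 and 120 in EB-resistant, 186, 237 and 236 in VC-resistant, 101, 135 and 127 in DT-resistant and 457, 475 and 393 in sensitive libraries. The sensitive libraries were the highest, the VC-resistant libraries came next, and the EB-resistant and DT-resistant libraries overlapped at the bottom. PHLDA1 fell by 3.98-fold in EB-resistant cells (log2 fold change -1.99 ± 0.127, adjusted p 1.32e-08), by 2.01-fold in VC-resistant cells (-1.01 ± 0.123, adjusted p 1.17e-05) and by 3.65-fold in DT-resistant cells (-1.87 ± 0.126, adjusted p 3.6e-08). VC-resistant cells kept more of it than DT-resistant cells (log2 fold change 0.86 ± 0.123, adjusted p 0.00029), and EB-resistant and DT-resistant cells differed by -0.13, with a 95% interval of -0.391 to 0.136.

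EMP1 (chr12:13196723-13219941, plus strand) encodes a membrane protein of the PMP22 family that spans the membrane several times. Its CPM were 88.8, 76.2 and 84.6 in EB-resistant, 216, 219 and 252 in VC-resistant, 160, 189 and 201 in DT-resistant and 568, 503 and 454 in sensitive libraries. No 2 groups overlapped, with sensitive cells the highest and EB-resistant cells the lowest. EMP1 fell by 6.11-fold in EB-resistant cells (log2 fold change -2.61 ± 0.107, adjusted p 4.81e-11), by 2.22-fold in VC-resistant cells (-1.15 ± 0.102, adjusted p 3.06e-07) and by 2.78-fold in DT-resistant cells (-1.47 ± 0.102, adjusted p 2.1e-08). The step between VC-resistant and DT-resistant cells was the least firm. Its log2 fold change was 0.32 ± 0.101 with an adjusted p of 0.0416, and it lost its call in 7 of 20 alternatives, with adjusted p between 0.0014 and 0.185 over all 20. It was not called without sensitive replicate 5 (0.32), EB-resistant replicate 6 (0.33), VC-resistant replicate 5 (0.35) or 6 (0.25), or DT-resistant replicate 2 (0.23) or 5 (0.34). With the replicate number as a block it was called, at 0.32 ± 0.102 in 12 libraries (adjusted p 0.042). In the libraries of these lines alone the block gave 0.327 ± 0.0601 (adjusted p 0.0014). Without the block the fit to those libraries gave 0.324 ± 0.101 and was not called (adjusted p 0.0704).

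**Figure D3:**
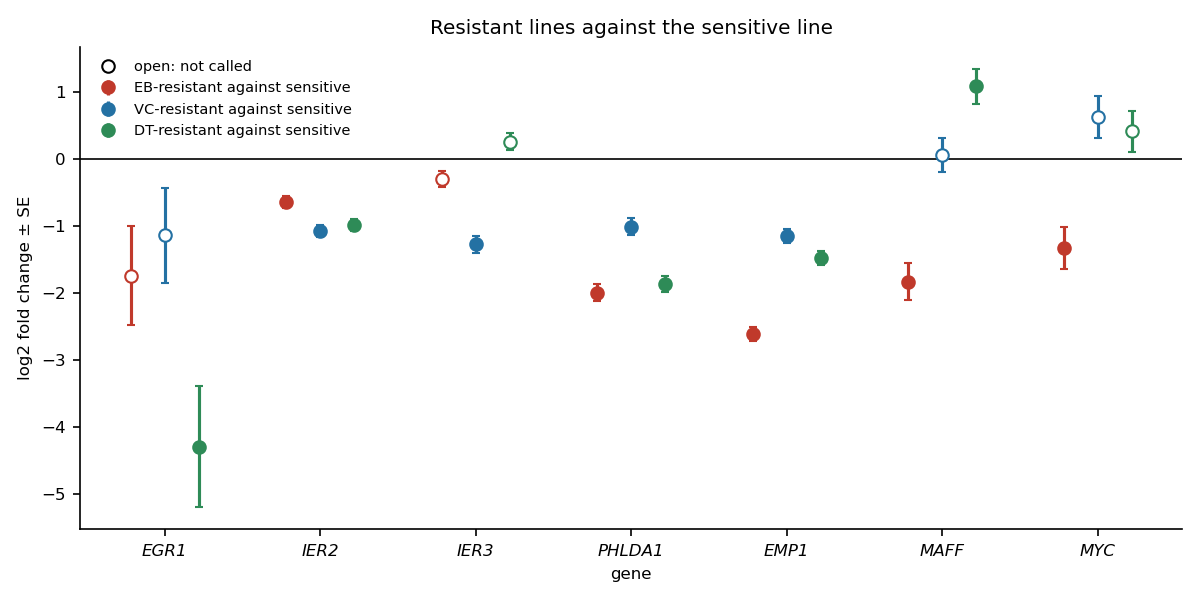
Log2 fold changes ± SE of the 7 genes in each resistant line against sensitive cells, with open symbols where the adjusted p did not pass 0.05. IER2, PHLDA1 and EMP1 have 3 filled symbols below 0, and MAFF has a filled symbol on either side of 0.

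Counted over the 7 genes, none rose and 5 fell in EB-resistant cells, where 28.5% of the 17114 tested genes rose and 27.6% fell. In VC-resistant cells none rose and 4 fell, against 27.6% and 27.4% of tested genes. In DT-resistant cells 1 rose and 4 fell, against 29.8% and 29.3%. Calls with a fold limit are rarer. Calls of at least 2-fold downward numbered 4 of 7 in EB-resistant, 4 of 7 in VC-resistant and 3 of 7 in DT-resistant cells, against 8.7%, 9.23% and 10.6% of tested genes. Near that limit lay PHLDA1 in VC-resistant cells, counted at -1.006, and IER2 in DT-resistant cells, not counted at -0.985. The median log2 fold change of the 7 was -1.74, -1.08 and -0.98 in EB-resistant, VC-resistant and DT-resistant cells, while that of all tested genes was within 0.01 of 0. The 7 genes, and the gene lists below, were chosen with earlier results of these data known. Their counts and medians beside those of all tested genes are therefore a description and not a test.

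The resistant lines also differed from each other in these genes. EB-resistant cells had higher IER2 and IER3 and lower PHLDA1, EMP1, MAFF and MYC than VC-resistant cells, where 29.6% of tested genes were higher and 28.8% lower. IER3 was 1.97-fold higher (log2 fold change 0.98 ± 0.126, adjusted p 1.38e-05), and MAFF was 3.72-fold and EMP1 2.75-fold lower (adjusted p 0.000178 and 2.3e-08). PHLDA1 was 1.98-fold lower (adjusted p 1.12e-05). EGR1 had a log2 difference of -0.60 ± 0.744 with overlapping libraries (adjusted p 0.516). Without EB-resistant replicate 6 it was -1.91 with an adjusted p of 0.0266, in a range of 0.0266 to 0.884 over the alternatives.

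EB-resistant cells against DT-resistant cells gave 2 genes higher, EGR1 and IER2, and 4 lower, IER3, EMP1, MAFF and MYC, against 28.4% and 28.8% of tested genes. EMP1 was 2.2-fold lower (log2 fold change -1.14 ± 0.102, adjusted p 2.96e-07). The higher EGR1 of EB-resistant cells, with a log2 fold change of 2.55 ± 0.933 and an adjusted p of 0.0408, rested on overlapping libraries and kept its call in 7 of 20 alternatives, with adjusted p from 0.00073 to 0.179. Without EB-resistant replicate 6 it was 1.25 with an adjusted p of 0.179. It also lost the call without DT-resistant replicate 2 (2.06), 5 (2.73) or 6 (3.02), any sensitive library (2.55 to 2.56), or VC-resistant replicate 5 or 6 (2.55 each).

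VC-resistant and DT-resistant cells differed in fewer genes than the other pairs, with 7.08% of tested genes higher and 8.71% lower, and 5 of the 7 early response genes were called between them. EGR1, PHLDA1 and EMP1 were higher in VC-resistant cells, and IER3 and MAFF lower. MAFF was 2.04-fold lower (log2 fold change -1.03 ± 0.260, adjusted p 0.0243), with a call in 14 of 20 alternatives. That call was lost without VC-resistant replicate 5 (-0.85) or 6 (-0.95) and without DT-resistant replicate 2 (-0.95), 5 (-1.07) or 6 (-1.05), with adjusted p from 9.25e-05 to 0.104 over the alternatives. With the replicate number as a block MAFF was at -1.065 ± 0.125 in 12 libraries (adjusted p 9.25e-05). In the libraries of these lines alone the block gave -1.059 ± 0.111 (adjusted p 0.000356). EGR1 was 8.92-fold higher without overlap (log2 fold change 3.16 ± 0.917, adjusted p 0.0471), and was called in 8 of 20 alternatives, with adjusted p from 1.6e-06 to 0.154. The EGR1 call was lost without VC-resistant replicate 5 (2.95) or 6 (2.96), DT-resistant replicate 2 (2.67), 5 (3.34) or 6 (3.63), EB-resistant replicate 5 (3.15) or any sensitive library (3.16 each). Libraries of these lines with the same number deviated together, and with the replicate number as a block the EGR1 difference had an adjusted p of 0.0532 in all 12 libraries and of 1.6e-06 (log2 fold change 3.19 ± 0.255) in the libraries of these lines alone. Without the block these adjusted p were 0.0471 and 0.0137. Over all tested genes 1591 were higher and 1923 lower with the block in 12 libraries, against 1211 and 1491 without it. In the libraries of these lines alone 2100 were higher and 2317 lower with the block, against 826 and 1087 without it. MYC stayed uncalled, at 0.22 ± 0.305 without the block.

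**Figure D4:**
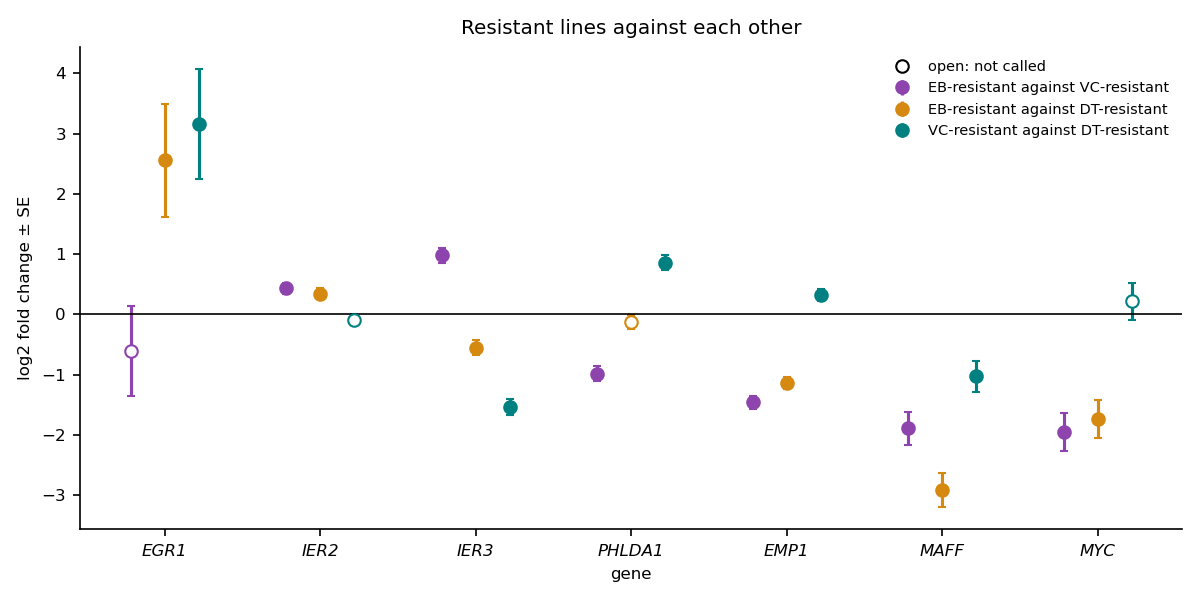
Log2 fold changes ± SE of the 7 genes between resistant lines, the first line named over the second, with open symbols where the adjusted p did not pass 0.05. Of the 3 symbols of a gene, MYC has its filled ones in the EB-resistant comparisons, below 0, and IER3 has 1 above 0 and 2 below 0.

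Replicate experiments spread unequally over the 7 genes. The pooled SD of log2 CPM within groups was 1.14 for EGR1, 0.396 for MYC and 0.348 for MAFF, larger than in 99.9%, 99% and 98.2% of tested genes of like level. IER2, with an SD of 0.11, lay near the middle of its like-level genes, of which 45.6% had a lower SD. IER3, PHLDA1 and EMP1 had SDs of 0.184, 0.182 and 0.144, above 88.4%, 89.2% and 79.2% of such genes. Replicate 2 had the lowest EGR1 in each resistant line and the highest EGR1 in sensitive cells. Libraries with that number also had the highest MAFF in all 4 groups and the highest MYC in VC-resistant and DT-resistant cells. MYC in VC-resistant cells ranged over 2.2-fold between libraries, against 1.09-fold in EB-resistant cells.

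Other immediate early genes moved in both directions. Of 45 tested, 11 rose and 14 fell in EB-resistant cells, 12 rose and 13 fell in VC-resistant cells, and 15 rose and 13 fell in DT-resistant cells. The shares called in either direction were 55.6%, 55.6% and 62.2%, near the 56.1%, 55% and 59.1% of all tested genes, and the median log2 fold changes of the list were -0.10, -0.06 and 0.17. NR4A3, an orphan nuclear receptor, rose to 13.4 ± 2.88 CPM in VC-resistant and 12.3 ± 3.88 CPM in DT-resistant cells, against 1.14 ± 0.211 CPM in sensitive cells (adjusted p 5.77e-08 and 5.61e-08), and had 0.721 ± 0.170 CPM in EB-resistant cells, which was not called. ARID5B rose in each line, with log2 fold changes of 2.06, 1.83 and 1.65 in EB-resistant, VC-resistant and DT-resistant cells. MCL1, a survival factor of the BCL2 family, fell in each, by 1.19, 0.66 and 1.11 on the log2 scale, and so did ZFP36L2, an RNA-binding protein that hastens mRNA decay, by 1.49, 1.71 and 2.22. HBEGF, an EGF receptor ligand, fell by 1.57 in EB-resistant and 0.50 in DT-resistant cells, with an uncalled log2 difference of -0.25 in VC-resistant cells. FOSL1, an AP-1 subunit, fell by 0.97 in EB-resistant and 1.59 in DT-resistant cells, with an uncalled log2 difference of -0.33 in VC-resistant cells (adjusted p 0.0628).

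The list of 10 genes used to score MAPK pathway activity, which includes PHLDA1, moved downward. In EB-resistant cells 9 fell and 1, EPHA4, rose, in VC-resistant cells 8 fell, and in DT-resistant cells 9 fell, where 27.6%, 27.4% and 29.3% of all tested genes fell. The medians of the list were -1.96, -0.44 and -0.98. In VC-resistant and DT-resistant cells PHLDA1 was among the 3 called genes of this list with the lowest adjusted p, beside CCND1 and DUSP6. For CCND1, as for PHLDA1, VC-resistant cells were nearest to sensitive cells (37.6 ± 8.03, 179 ± 9.92, 138 ± 10.1 and 421 ± 23.5 CPM in EB-resistant, VC-resistant, DT-resistant and sensitive cells). Of 13 genes of SRF, its cofactors and the ERK pathway kinases, 5 rose and 5 fell in EB-resistant cells, 4 rose and 4 fell in VC-resistant cells, and 4 rose and 5 fell in DT-resistant cells, which is 76.9%, 61.5% and 69.2% called against 56.1%, 55% and 59.1% of all tested genes. SRF averaged 85.8 ± 16.8, 143 ± 10.96, 128 ± 19.4 and 103 ± 10.5 CPM in EB-resistant, VC-resistant, DT-resistant and sensitive cells and rose in VC-resistant cells (adjusted p 0.00873), with an adjusted p of 0.119 in EB-resistant and 0.0574 in DT-resistant cells. ELK3, an ETS partner of SRF, fell by 1.69, 1.15 and 1.35 on the log2 scale in EB-resistant, VC-resistant and DT-resistant cells. MRTFA, an actin-regulated coactivator of SRF, rose in EB-resistant and DT-resistant cells (log2 fold changes 1.12 and 0.80), and its relative MRTFB rose in EB-resistant cells (1.03). In the other lines MRTFA had an uncalled log2 difference of -0.03 in VC-resistant cells, and MRTFB had -0.12 in VC-resistant and 0.01 in DT-resistant cells.

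Relatives of the 7 genes shared their direction in part. PHLDA2 fell beside PHLDA1 in the 3 lines, by 1.02, 1.19 and 1.22 on the log2 scale in EB-resistant, VC-resistant and DT-resistant cells, while PHLDA3 rose in EB-resistant cells (0.84 ± 0.192) and had uncalled log2 differences of 0.42 and 0.38 in VC-resistant and DT-resistant cells. IER5 fell beside IER2, by 0.50, 0.79 and 0.89, while IER5L rose by log2 fold changes of 1.52, 0.66 and 0.48. Of the EMP1 relatives, PMP22 rose in each line (log2 fold changes 1.00, 0.50 and 0.39), and EMP3 fell in VC-resistant and DT-resistant cells (-0.56 and -0.59), with an uncalled 0.04 in EB-resistant cells. NAB2, a corepressor that binds EGR proteins and is itself induced with EGR1, rose in VC-resistant cells (1.05 ± 0.161) and DT-resistant cells (0.49 ± 0.161), with an uncalled -0.08 in EB-resistant cells. Of the other small MAF genes, MAFK rose in VC-resistant and DT-resistant cells (1.06 ± 0.225 and 1.44 ± 0.227, adjusted p 0.00247 and 0.000311) and stood at 67.2 ± 11.1 CPM in EB-resistant and 72.5 ± 17.9 CPM in sensitive cells. MAFG, the third small MAF gene, fell in EB-resistant cells (-0.32 ± 0.0938, adjusted p 0.00908) and had uncalled log2 differences of 0.02 in VC-resistant and 0.08 in DT-resistant cells. BACH2, a partner of small MAF proteins, rose in the 3 lines (3.28, 1.93 and 3.12), from 0.694 ± 0.156 CPM in sensitive cells. NFE2L3, of the same list, fell in EB-resistant cells (-0.65) and rose in VC-resistant and DT-resistant cells (0.64 and 0.575). Of 11 tested MAF genes and partners, MAFF included, 6 rose and 3 fell in EB-resistant cells. In VC-resistant cells 5 rose and 2 fell, and in DT-resistant cells 7 rose and none fell. The shares called were 81.8%, 63.6% and 63.6%, against 56.1%, 55% and 59.1% of all tested genes.

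Among 17 genes of the MYC network, MYC included, 3 rose and 5 fell in EB-resistant cells, 6 rose and 5 fell in VC-resistant cells, and 8 rose and 5 fell in DT-resistant cells. The shares called in either direction were 47.1%, 64.7% and 76.5%, against 56.1%, 55% and 59.1% of all tested genes. In EB-resistant cells, where MYC fell, MXD1, a MAX partner that opposes MYC, fell by 1.85 on the log2 scale. Its relatives MXD4, MXD3 and MXI1 rose there by 1.13, 0.97 and 0.635. MXI1 also rose in VC-resistant and DT-resistant cells (0.746 and 0.905), and MXD3 rose in DT-resistant cells (0.593). MXD1 had uncalled differences of -0.19 and -0.08 in VC-resistant and DT-resistant cells, and MXD4 rose by 0.43 in DT-resistant cells and had an uncalled -0.08 in VC-resistant cells. MAX fell in VC-resistant cells (-0.48 ± 0.0799) and DT-resistant cells (-0.25 ± 0.0797), with an uncalled 0.08 in EB-resistant cells. MYC target genes of ribosome making and nucleotide synthesis fell more often than they rose in each line. Of 30, 1 rose and 16 fell in EB-resistant cells, 3 rose and 14 fell in VC-resistant cells, and 2 rose and 18 fell in DT-resistant cells, with medians of -0.26, -0.25 and -0.38. Of all tested genes 28.5%, 27.6% and 29.8% rose and 27.6%, 27.4% and 29.3% fell, and the list's shares called in either direction, 56.7%, 56.7% and 66.7%, stood against 56.1%, 55% and 59.1%. CAD, an enzyme of pyrimidine synthesis, fell by 1.15 in EB-resistant and 0.25 in DT-resistant cells and had an uncalled log2 difference of 0.03 in VC-resistant cells, while ODC1, the first enzyme of polyamine synthesis, averaged 129 ± 9.19, 189 ± 39.6, 148 ± 48.6 and 602 ± 28.4 CPM in EB-resistant, VC-resistant, DT-resistant and sensitive cells.

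**Figure D5:**
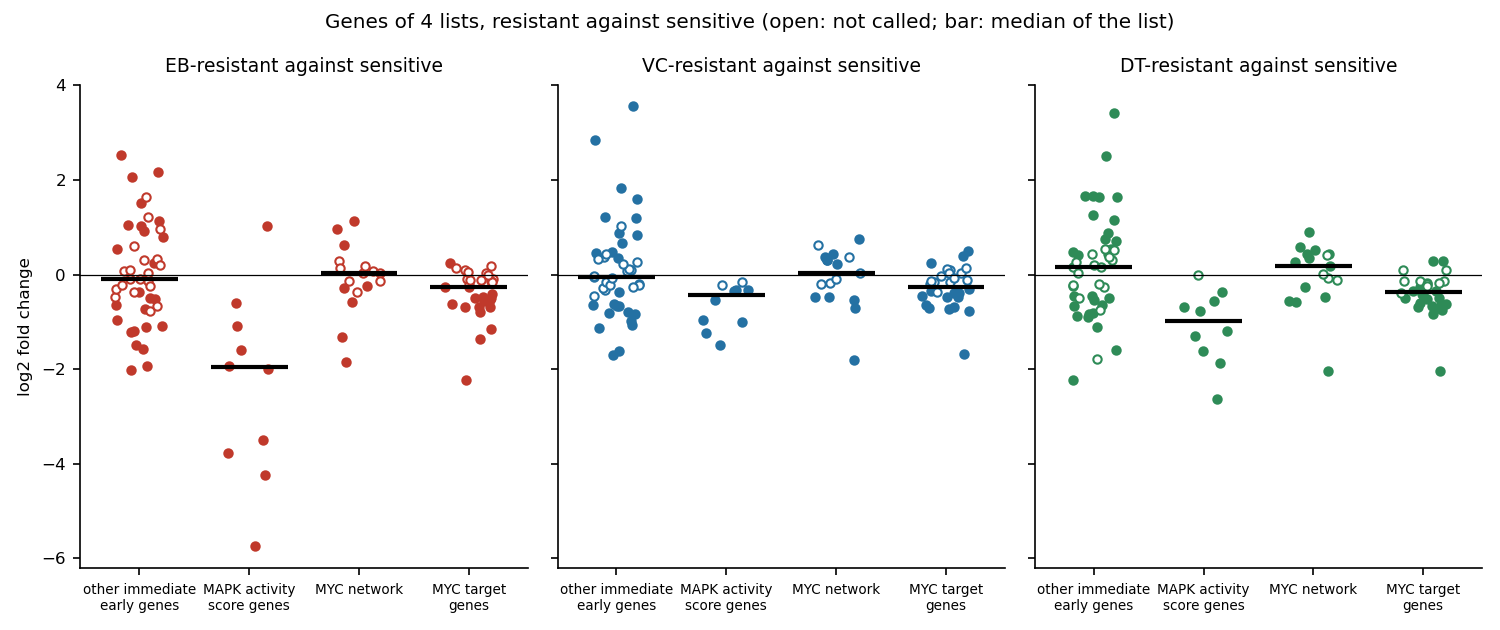
Log2 fold changes of the genes of 4 lists in EB-resistant, VC-resistant and DT-resistant cells against sensitive cells, each point a gene, filled where called, with a bar at the median. The MAPK activity score genes lie lowest, with medians of -1.96, -0.44 and -0.98, and the other immediate early genes spread to both sides of 0.

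Genes with the most similar pattern over the 12 libraries were found by the root mean square difference of centred log2 CPM among tested genes with a mean of at least 5 CPM. PLAUR, the urokinase receptor, was nearest to EMP1 (0.141 log2 units), followed by LINC02693 and HMGA1. GLYCTK, ANTXR2 and TUBB6 were nearest to PHLDA1 (0.176 to 0.2), and PSME4, ZNF672 and RBM6 to IER2 (0.096 to 0.112). CD274, which encodes PD-L1, was nearest to MAFF (0.353), followed by GPR65 and the carboxypeptidase M gene. CD274 averaged 41.6 ± 6.58, 238 ± 69.0, 275 ± 24.6 and 128 ± 24.3 CPM in EB-resistant, VC-resistant, DT-resistant and sensitive cells. ZNF703, PAX9 and FAM234B were nearest to MYC (0.233 to 0.267) and FBXO32, PTPRE and LPCAT2 to IER3 (0.271 to 0.287). For EGR1 the nearest genes, PREX1, G0S2 and SYNE3, differed by 0.913 to 1.01, farther than the nearest genes of the other 6. The difference is not scaled to a gene's own spread. The SD of centred log2 CPM over the 12 libraries was 1.866 for EGR1, against 0.431 (IER2) to 1.099 (MAFF) for the other 6.

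Genes beside the 7 on the chromosomes moved in mixed directions. NAP1L1, 4.8 kb from PHLDA1, fell in EB-resistant cells (log2 fold change -0.68) and DT-resistant cells (-0.24) and rose in VC-resistant cells (0.21). KRR1 and GLIPR1, 513.8 and 521.6 kb from PHLDA1 on the side away from NAP1L1, fell in each line. KRR1 fell by 0.83, 0.72 and 0.77 in EB-resistant, VC-resistant and DT-resistant cells. BBS10, 312.7 kb from PHLDA1 on the side of NAP1L1, also fell in each line. STX10, which adjoins IER2, rose slightly where IER2 fell (0.36, 0.28 and 0.27). TMEM184B, 2.8 kb from MAFF, rose in each line (0.53, 0.25 and 0.69), in EB-resistant cells against the fall of MAFF. FAM234B, 54.2 kb from EMP1, fell in EB-resistant cells (-1.01) and rose in VC-resistant and DT-resistant cells (0.79 in both), in which EMP1 fell. REEP2, 18.5 kb from EGR1, fell in EB-resistant and DT-resistant cells (-1.35 and -0.57), with an uncalled 0.37 in VC-resistant cells. KDM3B, 28.5 kb from EGR1, rose in each line (0.52, 0.415 and 0.40). FLOT1, 0.5 kb from IER3, rose in VC-resistant cells (0.31) and was not called in the other 2 lines. LRATD2, 1177 kb from MYC, rose in each line (0.57, 0.92 and 0.53).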

How the data were processed

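The authors deposited gene-level read counts and a signal table of normalised counts for the same 12 libraries, whose values are the counts over the size factor of each library. Per the labels' protocols, polyadenylated RNA was made into strand-specific libraries and sequenced as 100 bp paired ends. Per the submitters' processing notes, bcl2fastq 2.20.0, STAR 2.7.10b, featureCounts 2.0.1 and DESeq2 1.38.3 were used with hg38; neither the counting's strand setting nor any drug dose is stated there. All columns were matched to a sample. Gene positions and lengths are those of the deposited count table.

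From the counts, low genes were removed (filterByExpr, 4 groups), libraries were scaled by TMM, and 1 robust quasi-likelihood fit, 1 coefficient for each group, was made in edgeR 4.0.16 (R 4.3.3, 8 residual degrees of freedom). The 6 pairs of groups were tested, with Benjamini-Hochberg adjustment over 17114 genes and a threshold of 0.05. CPM use TMM-scaled totals; 1 CPM was 45.8 to 46.5 of the authors' normalised counts, which put the 12 libraries in the same order for each of the 7 genes. Log2 CPM used a prior count of 2. Precision is set by 3 libraries per group; no molecular identifiers are described.

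The 7 genes and the gene lists were chosen with earlier results of these data known. All 7 are named, with the 3 genes nearest in pattern. Up to 3 genes per direction, list and comparison were ranked by adjusted p, but only some of them are named above. Left out there were, among others, CEBPD and ETV4. In EB-resistant against sensitive cells CEBPD was 4.53-fold higher and ETV4 13.7-fold lower, each ranked first in its list and direction. Chromosomal neighbours were also given, and list relatives such as MAFK, MAFG, SRF, MAX and CAD were added after their values were seen. Alternatives were the size factors of DESeq2 (RLE), no filter, a filter of 1 CPM in 3 libraries, DESeq2 1.42.0, limma 3.58.1 on log2(normalised count + 1), the 2 groups alone, a replicate block, and leaving out each library. Between VC-resistant and DT-resistant libraries of equal number, deviations from the group mean had correlations of 0.151 to 0.337, each above the limit of 0.1, which pairs these lines by data and not by label; no other pair of groups met the limit. On counts simulated for EB-resistant against sensitive libraries, 16639 genes in all, the model found 24, 35, 40 and 44 of 50 genes set to change by 1.5-, 2-, 3- and 4-fold, and called 9 genes set not to change. Only these few genes were set to change, whereas 56.1% of tested genes were called in the data. The simulated counts therefore do not measure how many changed genes the reported tests find. Sequences are from RefSeq, GRCh38.p14. Python 3.11.15 with matplotlib 3.10.9 drew the figures.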

Additional observations from a re-analysis of the deposited data

How the results depend on the processing

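Of 840 fold changes of the 7 genes under 20 alternatives, 782 kept their sign and their side of the threshold, 38 lost a call, 16 gained one and 4 had the other sign; 32 of 42 results kept their side of the threshold throughout. The 4 with the other sign, uncalled in both fits, were MAFF in VC-resistant against sensitive cells without sensitive replicate 6 (-0.08) or VC-resistant replicate 2 (-0.205; highest 0.245), and MYC in VC-resistant against DT-resistant cells without VC-resistant replicate 2 (-0.177; highest 0.482) or DT-resistant replicate 6 (-0.006), where the highest is that of the fits with 1 library left out. The number of genes higher in VC-resistant against sensitive cells was 0, and 0 to 1 with 1 library left out. In DT-resistant against sensitive cells 1 was higher, 2 with the replicate block over 12 libraries, and 1 to 2 with 1 library left out. In EB-resistant against DT-resistant cells 2 were higher, but 1 with no filter, with limma, with the replicate block over 12 libraries and with the groups alone, and 1 to 2 with 1 library left out. In VC-resistant against DT-resistant cells 3 were higher and 2 lower, 1 lower with no filter, and with 1 library left out 1 to 3 higher and 1 to 2 lower. Over all tested genes that pair had 1211 higher and 1491 lower, 2100 and 2317 with the replicate block in these groups alone (826 and 1087 there without it), and 756 and 966 without VC-resistant replicate 6, in ranges of 756 to 1306 and 966 to 1596 when libraries were left out in turn. The causes were not tested.

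EGR1 in EB-resistant against sensitive cells was called with the replicate block over 12 libraries (-2.14, adjusted p 0.0441), although the data do not pair those groups, and EGR1 in VC-resistant against sensitive cells was called with the groups alone (-1.13, adjusted p 0.0326). Without the filter EGR1 and MAFF lost their calls in VC-resistant against DT-resistant cells (adjusted p 0.0794 and 0.0509). The replicate block changed no call of the 7 genes other than those of EGR1 and IER3. Depth limits EGR1 in DT-resistant cells, whose libraries hold 4 to 27 counts.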
